A study of Mus musculus with 19 samples.

Results

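Oligodendrocyte and myelin genes were examined in the hippocampus of APP-PS1 transgenic mice and of wild-type littermates, fed chow with or without ibuprofen. The set was a list of 34 gene symbols, and a member was measured where the array annotation gave a probe set with that symbol alone. By this rule 33 of the 34 genes were measured, each by 1 probe set, among 19938 genes in all. Evi2a had no such probe set and was not analysed here.

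All mice were on the C57BL/6J strain and were 6 months old when the hippocampus was taken. The transgenic mice carried APPSwe-PS1deltaE9, a human amyloid precursor protein gene with the Swedish mutation and a presenilin 1 gene that lacks an exon, which are driven in this line by the mouse prion protein promoter. They were compared with littermates that lacked the transgenes, and ibuprofen, a non-steroidal anti-inflammatory drug, was given at 375 ppm in the chow from 3 to 6 months of age, while controls ate the same chow without it. The 4 groups were wild-type on control chow (n = 4), wild-type on ibuprofen chow (n = 5), APP-PS1 on control chow (n = 5) and APP-PS1 on ibuprofen chow (n = 5). Each of the 19 arrays was labelled as a separate sample, and the labels used here did not tie arrays to single animals, so the p-values measure the spread between these arrays.

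Oligodendrocytes wrap axons of the central nervous system in myelin, a stack of membrane that is rich in cholesterol and galactolipids and is held together by proteins found almost nowhere else in the brain. Olig1, Olig2, Sox10 and Myrf are the transcription factors of the lineage, and Myrf and Sox10 act on the genes of compact myelin. In the hippocampus myelinated fibres run in the alveus, the fimbria and the stratum lacunosum-moleculare. A sample of whole hippocampus holds oligodendrocytes beside neurons and other glia, and in such bulk tissue fewer cells of a type and less RNA per cell cannot be told apart.

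The regions around the start sites of 3 members are shown because 2 of them differed between genotypes on control chow without overlap and the other had nearly equal means. Mal, which encodes a proteolipid of compact myelin, and Cnp, which encodes the myelin enzyme 2',3'-cyclic nucleotide 3'-phosphodiesterase, were higher in every APP-PS1 array than in every wild-type array, while Mobp encodes a small basic myelin protein. Each region runs 5' to 3' on the gene's own strand, from 250 bases before to 50 bases after the RefSeq start, in build GRCm38.p6. The Mal region is chr2:127656646-127656945 on the minus strand, the Cnp region is chr11:100574689-100574988 on the plus strand, and the Mobp region is chr9:120149492-120149791 on the plus strand. Capitals mark matches on either strand to ACAAAG, the core that SOX proteins read, or to CTGGCAC or CTGGTAC, the motif of MYRF.
Mal: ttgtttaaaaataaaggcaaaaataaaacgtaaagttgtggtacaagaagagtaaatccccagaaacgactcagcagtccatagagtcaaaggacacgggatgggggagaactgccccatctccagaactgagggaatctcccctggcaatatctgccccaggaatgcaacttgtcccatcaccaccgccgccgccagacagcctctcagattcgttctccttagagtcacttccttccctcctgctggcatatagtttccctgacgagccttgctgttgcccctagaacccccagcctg
Cnp: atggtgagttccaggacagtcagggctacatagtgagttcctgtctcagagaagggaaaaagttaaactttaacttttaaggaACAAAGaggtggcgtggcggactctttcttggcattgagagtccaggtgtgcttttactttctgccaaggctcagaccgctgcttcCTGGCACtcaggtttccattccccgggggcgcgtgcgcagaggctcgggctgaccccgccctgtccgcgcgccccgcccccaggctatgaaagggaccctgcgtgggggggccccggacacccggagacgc
Mobp: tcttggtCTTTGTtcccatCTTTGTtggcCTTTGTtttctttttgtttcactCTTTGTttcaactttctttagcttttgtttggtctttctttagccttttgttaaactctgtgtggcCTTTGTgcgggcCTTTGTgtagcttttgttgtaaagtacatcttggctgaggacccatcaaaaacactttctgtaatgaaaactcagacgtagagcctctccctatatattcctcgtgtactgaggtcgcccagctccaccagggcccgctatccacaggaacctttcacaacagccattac

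RefSeq windows were used for 23 of the 34 listed genes, 32 windows in all, and none was used for the other 11 genes. Member windows on a chromosome that was set aside were left out, while the windows of all genes include that chromosome. The SOX core was in 10 of the 32 member windows (31.2%) and in 18.7% of all 32851 windows of 300 bases. The MYRF motif was in 6 member windows (18.8%) and in 7.1% of all windows. The E-box CAGCTG, read by OLIG proteins among others, was in 7 member windows (21.9%) against 16.3%, and the TATA motif TATAAA was in 3 (9.38%) against 13.6%. Several windows belong to 1 gene and overlap, so these shares are descriptions with no test. Cnp held 1 SOX core 167 bases and 1 MYRF motif 81 bases before its start. Mobp held 6 SOX cores, from 243 to 120 bases before its start, and Mal held no match to any of the 4 motifs.

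Values are log2 expression, and the level of a probe set is not comparable with that of another probe set. Prnp, whose promoter drives the transgenes, lay between 12.67 and 12.83 in the wild-type arrays and between 13.31 and 13.44 in the APP-PS1 arrays, so the genotype labels separated without overlap. On 3 arrays, replicates 1 and 5 of wild-type mice on ibuprofen and replicate 1 of APP-PS1 mice on control chow, the upper quartile over genes was 10.22 to 10.32, against 9.98 to 10.11 on the other 16. Results are therefore also given without these 3 arrays. Choroid plexus markers varied most between arrays, with a mean over 15 markers of 7.60 to 10.27 across all arrays. The array table gave no detection calls, so presence of a marker could not be tested probe by probe.

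The first comparison, APP-PS1 against wild-type on control chow, asks how the transgenes were associated with hippocampal expression without the drug. Members were mostly somewhat higher in APP-PS1 hippocampus: 29 of 33 differences were above 0, with a median of 0.12 on the log2 scale. Over all genes 57.9% of differences were above 0, with a median of 0.02. The differences were small, and the largest, for Tspan2, corresponded to a 1.31-fold higher level. By limma with Benjamini-Hochberg adjustment over all 19938 genes, 0 members passed an adjusted p of 0.05, against 0.01% of all genes, and the smallest adjusted p of a member was 0.762. At an unadjusted p under 0.05, 10 of 33 members (30.3%) were higher and 0 were lower, against 4.8% and 1.07% of all genes. In 7 members (21.2%) every APP-PS1 array lay above every wild-type array, against 2.94% of all genes, and in 0 members every array lay below, against 0.903%.

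Genes of the myelin membrane held most of the members with an unadjusted p under 0.05 in this comparison, 8 of 10, with a median difference of 0.14 over 14 members, 12 of them above 0 (11 under either of the other scalings). Tspan2, a tetraspanin of the oligodendrocyte membrane, read 10.84, 11.10, 10.40 and 10.98 on wild-type control arrays 1 to 4 and 11.23, 11.16, 11.20, 11.16 and 11.36 on APP-PS1 control arrays 1 to 5. The groups did not overlap, although wild-type replicate 2 came close to the lowest APP-PS1 array and wild-type replicate 3 stood lowest. The fitted difference was 0.39 ± 0.10 (SE), unadjusted p = 0.00068 and adjusted p = 0.762 by limma, and it was 0.25 without wild-type control replicate 3.

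Mal read 11.47, 11.65, 11.45 and 11.46 in wild-type mice and 11.77, 11.70, 11.68, 11.66 and 11.76 in APP-PS1 mice on control chow. Again no array overlapped, and 1 wild-type array, replicate 2, lay close to the APP-PS1 values. Mal differed by 0.20 ± 0.05 (SE), with an unadjusted p of 0.00106 and an adjusted p of 0.762 by limma. Cnp read 12.13, 12.28, 12.17 and 12.19 in wild-type mice and 12.30, 12.33, 12.39, 12.38 and 12.38 in APP-PS1 mice. The SD within these groups was 0.06 and 0.04, and the difference was 0.16 ± 0.05 (SE), unadjusted p = 0.0042 and adjusted p = 0.767 by limma.

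Mag, which encodes the adhesion protein that faces the axon, lay at 11.17, 11.32, 11.22 and 11.32 in wild-type arrays against 11.60, 11.51, 11.38, 11.36 and 11.56 in APP-PS1 arrays. These values did not overlap, and the difference was 0.22 ± 0.09 (SE). Pllp, which encodes the membrane protein plasmolipin, read 9.98, 10.15, 10.15 and 9.94 against 10.42, 10.20, 10.27, 10.20 and 10.23, a difference of 0.21 ± 0.10 (SE). Here too the groups were apart, with the lowest APP-PS1 array at 10.20 and the highest wild-type array at 10.15.

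Mog, on the outer face of the myelin sheath, and Cldn11, the claudin of its tight junctions, were higher by 0.23 ± 0.09 and 0.23 ± 0.08 (SE), but 1 wild-type array overlapped in each. Mog read 10.74, 10.97, 10.57 and 10.85 in wild-type mice and 11.09, 11.01, 11.00, 10.93 and 11.05 in APP-PS1 mice. For Cldn11 the values were 11.16, 11.44, 11.23 and 11.28 against 11.56, 11.49, 11.53, 11.42 and 11.54. In both genes the overlapping array was wild-type replicate 2. Plekhb1, a membrane-associated pleckstrin homology protein, differed by 0.12 ± 0.05 (SE), but by 0.055 without wild-type control replicate 3. Its wild-type range of 12.39 to 12.68 reached into the APP-PS1 range of 12.66 to 12.77.

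Not every structural myelin gene differed. Mbp, which encodes myelin basic protein and binds the inner membrane faces together, read 12.55, 12.60, 12.66 and 12.57 in wild-type mice and 12.58, 12.61, 12.59, 12.51 and 12.52 in APP-PS1 mice. The values were interleaved, and the 95% interval of the difference ran from -0.12 to 0.06. Mobp had a difference of -0.01 with an interval from -0.20 to 0.19, so differences within those bounds were not distinguishable from 0. Opalin, a sialylated membrane glycoprotein of myelin, differed by 0.02 with an interval from -0.26 to 0.31.

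Among the 6 lipid and metabolic genes all differences were above 0, also under both other scalings, with a median of 0.17, and 1 had an unadjusted p under 0.05. That gene was Qdpr, which regenerates tetrahydrobiopterin, at 11.84, 11.85, 11.59 and 11.79 in wild-type and 12.03, 11.90, 11.93, 11.93 and 11.99 in APP-PS1 arrays. No array overlapped, the difference was 0.19 ± 0.06 (SE), and it was 0.13 without wild-type control replicate 3. Ugt8a and Fa2h, which make the galactolipids of myelin and their hydroxylated fatty acids, differed by 0.19 ± 0.10 and 0.16 ± 0.09 (SE). Aspa, which frees acetate from N-acetylaspartate, differed by 0.15 ± 0.10 (SE). None of these 3 reached an unadjusted p of 0.05.

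Of the 5 secreted and carrier proteins, Trf, the iron carrier transferrin that oligodendrocytes among other cells make in brain, differed by 0.21 ± 0.08 (SE). Its wild-type arrays read 12.09, 12.22, 12.01 and 12.10 and its APP-PS1 arrays 12.34, 12.24, 12.19, 12.35 and 12.45, overlapping at wild-type replicate 2. The mean of the choroid plexus markers was 10.27 and 9.84 on APP-PS1 replicates 4 and 5, and 7.86, 7.80 and 7.93 on replicates 1 to 3. In wild-type mice on control chow that mean was highest on replicate 1, at 9.28, where Trf read 12.09. Apod, a lipid-binding apolipoprotein, differed by -0.04 with an interval from -0.26 to 0.18.

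The 5 transcription factors stood apart from the membrane genes in size: their differences ran from 0.01 to 0.05, with a median of 0.02, equal at this rounding to the median of all genes, and 0 had an unadjusted p under 0.05. With median centring their median was -0.01 and with quantile normalization -0.03. Olig2 read 9.44, 9.45, 9.49 and 9.39 in wild-type arrays and 9.66, 9.42, 9.50, 9.32 and 9.53 in APP-PS1 arrays. Sox10 read 9.64, 9.66, 9.92 and 9.78 against 9.95, 9.77, 9.77, 9.64 and 9.72, and Myrf read 10.00, 10.13, 10.34 and 10.05 against 10.33, 10.15, 10.08, 9.99 and 10.17. All 3 overlapped throughout. The difference between the membrane genes and the factors was not tested.

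**Figure D1:**
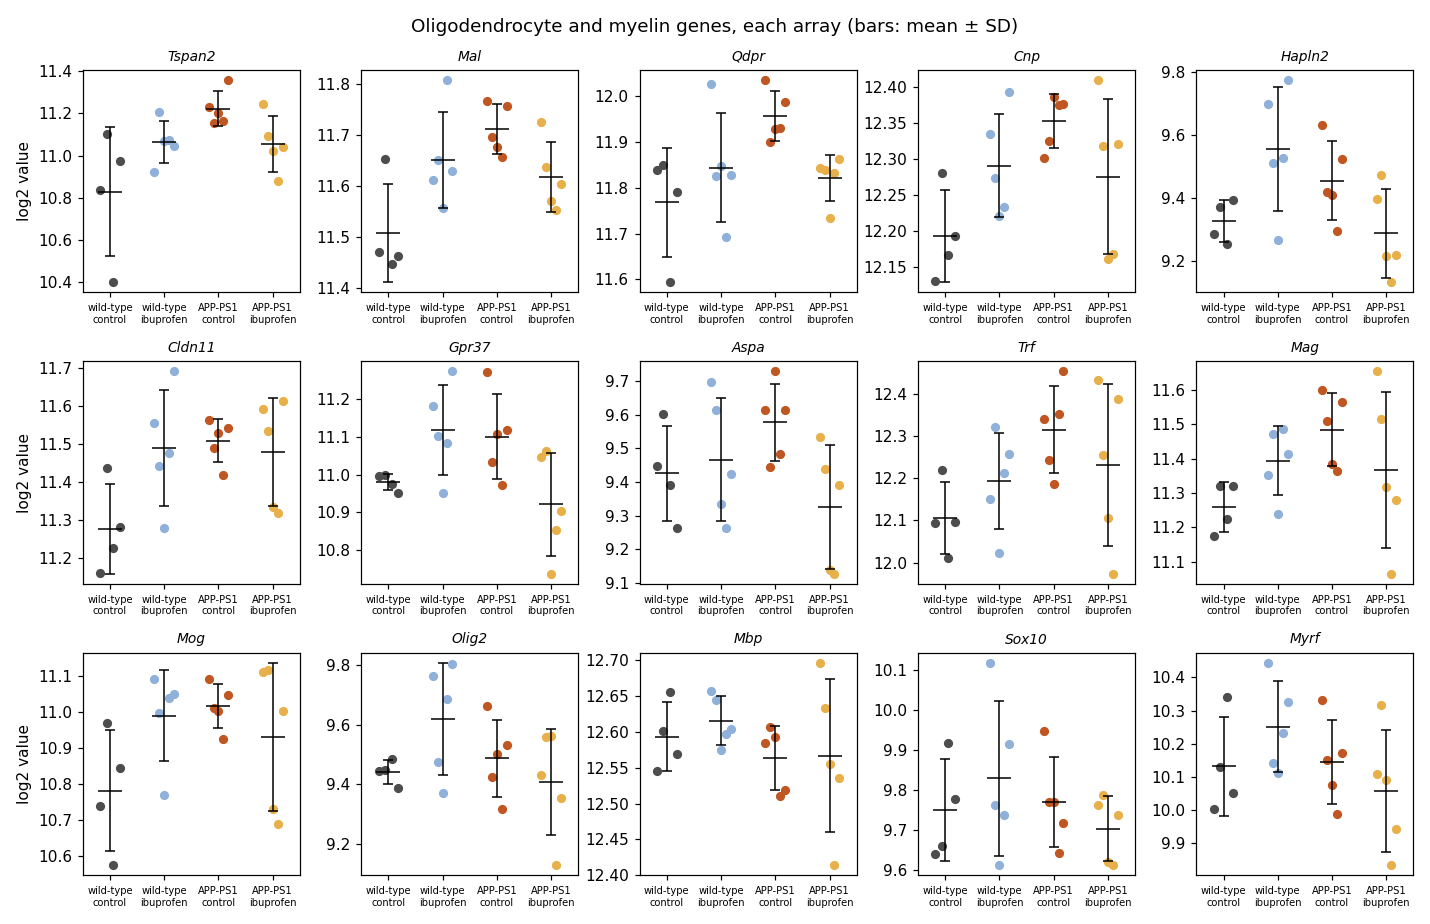
Log2 value of 15 members on each array, by group; points are arrays and bars the group mean ± SD (n = 4 for wild-type on control chow and 5 for each other group). On control chow the APP-PS1 arrays of Tspan2, Mal, Qdpr, Cnp and Mag lie above all wild-type arrays, while those of Mbp, Sox10, Myrf and Olig2 overlap with them. The vertical axes differ between genes and do not start at 0.

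The count was also read under other settings. Differences were above 0 for 24 members with a second quantile normalization (median 0.07) and for 25 with each array centred on its median (median 0.08). With quantile normalization 8 members were higher at an unadjusted p under 0.05, against 3.08% of all genes, and 8 with centring, against 3.38%. Without the 3 arrays with high upper quartiles it was 10, against 5.91%. The lowest count was 7, without wild-type control replicate 3, against 1.46%. The groups were apart for 6 members after quantile normalization (1.78% of all genes) and 5 after centring (1.63%). They stayed apart for Mag, Mal, Tspan2, Qdpr and Pllp under both scalings, whereas Cnp and Cryab, a small heat shock protein, overlapped under both.

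**Figure D2:**
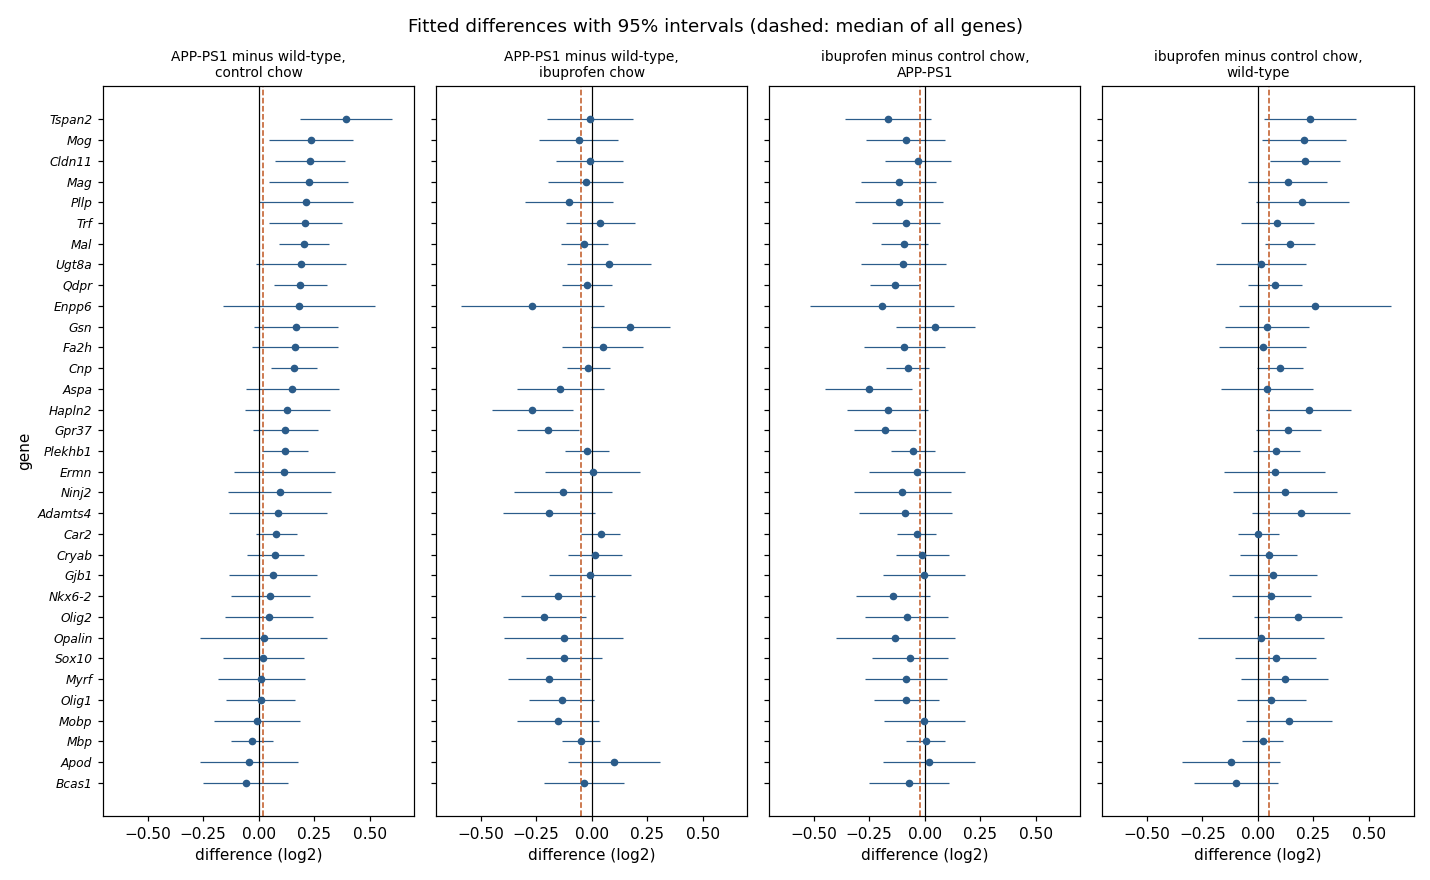
Fitted log2 difference of each of the 33 members in 4 comparisons, with 95% intervals; the dashed line is the median of all 19938 genes. In the first panel 29 members lie above 0, and in the panel of APP-PS1 mice on ibuprofen 30 lie below 0.

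The second comparison, ibuprofen against control chow in APP-PS1 mice, asks what the drug was associated with where the transgenes were present. The members were mostly slightly lower on ibuprofen: 30 of 33 differences were below 0, with a median of -0.09, against 58.2% of all genes below 0 and a median of -0.02. The median was -0.05 with median centring and -0.03 with quantile normalization. This comparison and the first share the 5 APP-PS1 control arrays. By limma 0 members passed an adjusted p of 0.05 (0% of all genes), and the smallest adjusted p was 0.716. At an unadjusted p under 0.05, 3 members (9.09%) were lower and 0 higher, against 4.66% and 1.82% of all genes. In 1 member (3.03%) all ibuprofen arrays lay below all control arrays, against 2.27% of all genes, and in 0 members above, against 0.507%. The share of 9.09% is 3 genes, so its distance from the background rests on few genes.

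The 3 genes were Gpr37, Aspa and Qdpr. Gpr37, an orphan receptor that restrains oligodendrocyte maturation, read 11.27, 11.03, 11.11, 10.97 and 11.12 on control chow and 11.05, 11.06, 10.74, 10.85 and 10.90 on ibuprofen. The groups overlapped, and the difference was -0.18 ± 0.07 (SE), unadjusted p = 0.0139 and adjusted p = 0.716 by limma. Aspa read 9.61, 9.45, 9.73, 9.48 and 9.61 against 9.53, 9.44, 9.14, 9.13 and 9.39, with replicates 3 and 4 on ibuprofen the lowest, and differed by -0.25 ± 0.09 (SE). Qdpr read 11.84, 11.84, 11.73, 11.83 and 11.86 on ibuprofen, all below the lowest control array at 11.90, and differed by -0.13 ± 0.05 (SE). The count of 3 became 8 without APP-PS1 ibuprofen replicate 1 (4.52% of all genes), on which 18 members had the highest value of their group. It was 1 without APP-PS1 control replicate 1 (2.49%) and 1 without APP-PS1 ibuprofen replicate 3 (3.09%).

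The SD of the members' mean was 0.13 in APP-PS1 mice on ibuprofen, against 0.04 to 0.11 in the other groups. On APP-PS1 ibuprofen replicate 4 the members' mean was 10.44, the lowest of all arrays, and 21 members had their group's lowest value there, against 25.4% of all genes. On replicate 1 of the same group the mean was 10.76, and only 12.2% of all genes had their highest value there. Mag ran from 11.07 to 11.65 in this group and Mog from 10.69 to 11.12, ranges wider than any difference between group means of those genes. Over members the median within-group SD was 0.144, and over all genes it was 0.123.

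**Figure D3:**
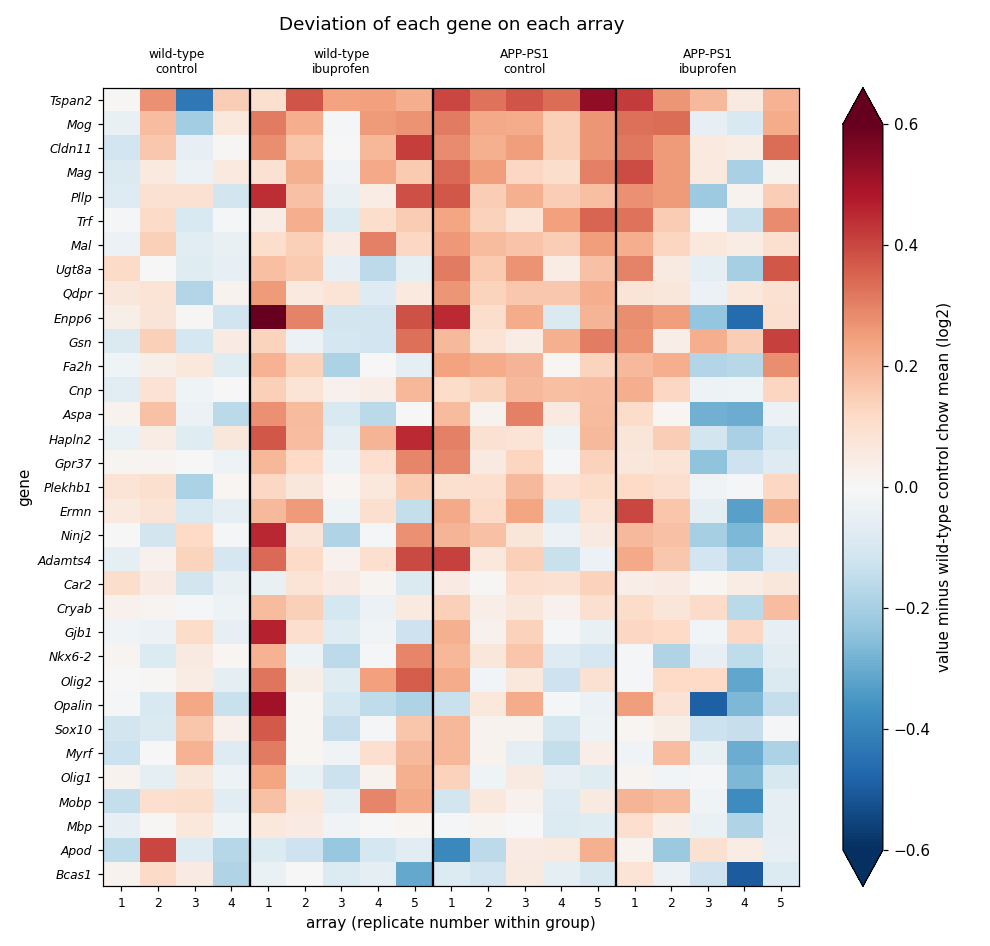
Value of each member on each array minus its mean over wild-type control arrays (log2), in the order of the genotype difference on control chow; columns are arrays by group and replicate number. Tspan2 to Trf are above 0 on all APP-PS1 control arrays, and within APP-PS1 mice on ibuprofen replicates 3 and 4 are low for many members while replicates 1 and 2 are high.

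The third comparison, ibuprofen against control chow in wild-type mice, asks what the drug was associated with where no transgene was present. Here 31 of 33 members were above 0, with a median of 0.08, against 66.8% of all genes and a median of 0.05. With median centring 21 members were above 0 and the median was 0.02, where all genes had -0.02, and with quantile normalization 20 were above 0 and the median was 0.03, where all genes had 0.0042. Without the 3 arrays with high upper quartiles 22 were above 0. By limma 0 members passed an adjusted p of 0.05 (0% of all genes), and the smallest adjusted p was 0.432. At an unadjusted p under 0.05, 5 members (15.2%) were higher and 0 lower, against 9.08% and 1.95% of all genes. In 0 members the groups did not overlap in either direction, against 1.94% of all genes higher and 0.301% lower.

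The 5 genes were Cldn11, Mal, Hapln2, Tspan2 and Mog. Cldn11 read 11.56, 11.44, 11.28, 11.48 and 11.69 on ibuprofen and was higher by 0.21 ± 0.08 (SE), unadjusted p = 0.0108 and adjusted p = 0.432 by limma. Hapln2, a link protein of the matrix at nodes of Ranvier, read 9.29, 9.37, 9.25 and 9.39 on control chow and 9.70, 9.51, 9.27, 9.53 and 9.77 on ibuprofen, a difference of 0.23 ± 0.09 (SE). Its highest values were those of replicates 1 and 5, which are among the 3 arrays with high upper quartiles. Mal, Tspan2 and Mog were higher by 0.14 ± 0.05, 0.24 ± 0.10 and 0.21 ± 0.09 (SE). Without wild-type control replicate 3 the difference of Tspan2 was 0.09, with median centring that of Mal was 0.08, and with quantile normalization that of Mog was 0.13. Without the 3 arrays with high upper quartiles that of Cldn11 was 0.12, that of Hapln2 0.11 and that of Mog 0.15. Mal and Tspan2 were larger without those arrays, at 0.16 and 0.29. The count of 5 was 2 without those 3 arrays (2.31% of all genes), 2 with median centring (4.03%), 1 with quantile normalization (4.35%) and 2 without wild-type control replicate 3 (4.92%), and it was 10 without wild-type ibuprofen replicate 3 (13.1%). This comparison and the first share the 4 wild-type control arrays.

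The fourth comparison, APP-PS1 against wild-type on ibuprofen chow, asks how the genotypes differed under the drug. The members' median was -0.03, against -0.05 for all genes, but with median centring it was 0.03, against 0.02. As deposited, 8 of 33 differences were above 0, against 37.8% of all genes. With median centring 19 were above 0. With quantile normalization 17 were above 0 and the members' median was 0.0002, where all genes had -0.0043. By limma 0 members passed an adjusted p of 0.05, against 0.271% of all genes. At an unadjusted p under 0.05, 4 members (12.1%) were lower and 0 higher, a share of lower members under that of all genes, which was 18.2% lower and 6.25% higher. The groups did not overlap in 0 members, against 0.231% of all genes higher and 2.06% lower.

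The lower members were Hapln2, Gpr37, Olig2 and Myrf. Hapln2 read 9.40, 9.47, 9.21, 9.13 and 9.22 in APP-PS1 mice on ibuprofen and differed by -0.27 ± 0.09 (SE), with an unadjusted p of 0.00576 and an adjusted p of 0.136 by limma. Gpr37 read 11.18, 11.10, 10.95, 11.08 and 11.27 in wild-type mice on ibuprofen and was lower by 0.20 on the log2 scale in APP-PS1 mice, at -0.20 ± 0.07 (SE), adjusted p = 0.142. Olig2 read 9.76, 9.47, 9.37, 9.69 and 9.80 in wild-type and 9.43, 9.56, 9.56, 9.13 and 9.36 in APP-PS1 arrays, a difference of -0.21 ± 0.09 (SE). Myrf differed by -0.19 ± 0.09 (SE). All 5 transcription factors were below 0 here, with a median of -0.15, and they were below 0 with median centring (-0.09) and quantile normalization (-0.05) too. The 14 membrane genes had a median of -0.03 as deposited and of 0.04 with median centring. Without the 3 arrays with high upper quartiles the members' median was -0.03, where all genes had 0.0002. Olig2 and Myrf then each differed by -0.10, Hapln2 by -0.15 and Gpr37 by -0.12, and none of these genes kept an unadjusted p under 0.05. Tspan2, Mal, Cnp and Mag, among the members whose groups did not overlap on control chow, differed by -0.01, -0.03, -0.02 and -0.03 on ibuprofen. With median centring these differences were 0.06, 0.03, 0.05 and 0.04.

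Whether the drug difference itself depended on genotype was tested by the interaction, the ibuprofen difference in APP-PS1 mice minus that in wild-type mice. It was below 0 for 30 of 33 members, with a median of -0.18, against 64.4% of all genes and a median of -0.07. By limma 0 members passed an adjusted p of 0.05 (0% of all genes), and the smallest adjusted p was 0.208. At an unadjusted p under 0.05, 11 members (33.3%) were below 0 and 0 above, against 16% and 4.5% of all genes. The lowest p-values were those of Gpr37 at -0.32 ± 0.10, Mal at -0.24 ± 0.07, Hapln2 at -0.40 ± 0.13 and Tspan2 at -0.40 ± 0.14 (SE). The other 7 were Qdpr, Cnp, Mog, Cldn11, Pllp, Aspa and Mag.

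The count of 11 depended on scaling and on the 3 arrays with high upper quartiles. It was 2 with quantile normalization (6.52% of all genes), 2 with median centring (7.19%) and 4 without those arrays (6.79%), and leaving out single arrays gave from 6 without APP-PS1 ibuprofen replicate 4 (12.6%) to 16 without wild-type ibuprofen replicate 3 (17.9%). Gpr37 and Hapln2 were the members that kept an unadjusted p under 0.05 under both scalings, with Gpr37 at -0.19 and Hapln2 at -0.23 after quantile normalization. With median centring the members' median was -0.08 and that of all genes 0.03.

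**Figure D4:**
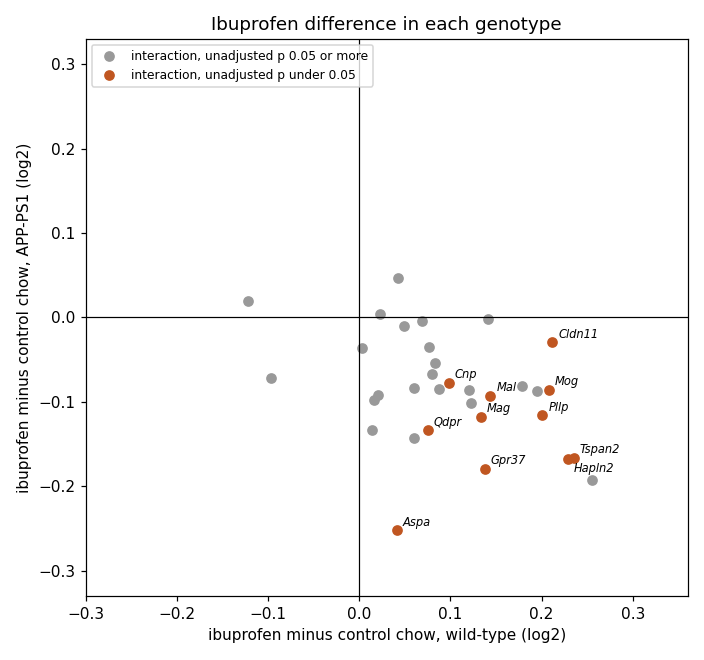
Ibuprofen difference of each of the 33 members in wild-type mice (horizontal) and in APP-PS1 mice (vertical), both log2; named orange points have an interaction with an unadjusted p under 0.05, and 0 members passed the adjusted threshold. Most points lie to the right of 0 and below 0, and the comparisons share no arrays.

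Averaged over the diets, the genotype difference had a median of 0.03 over members and -0.01 over all genes. By limma 0 members passed the adjusted threshold, against 0.0251% of all genes, and 6 members (18.2%) were higher and 0 lower at an unadjusted p under 0.05, against 2.34% and 5.36% of all genes. The 6 were Tspan2, Gsn, Mal, Trf, Cldn11 and Cnp. The count depended on the setting. It fell with the choroid plexus mean as a covariate and without APP-PS1 control replicate 5. It rose with median centring, with quantile normalization and with array weights. The members' median was 0.03 with the covariate, where all genes had -0.02, and 0.04 with median centring, where all genes had 0.01. With quantile normalization it was 0.03, where all genes had -0.0021, and with array weights 0.03, where all genes had -0.0002. Gsn, the actin-severing protein gelsolin, was higher in APP-PS1 mice on both diets, by 0.17 ± 0.09 on control chow and 0.17 ± 0.09 on ibuprofen (SE). Averaged over the genotypes, the ibuprofen difference had a median of 0.01 in members and in all genes, with 0 members past the adjusted threshold (0% of all genes) and 0 past an unadjusted p of 0.05 in either direction, against 1.27% higher and 0.466% lower.

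Related genes outside the set gave the setting of these differences. On control chow 9 of 38 other oligodendrocyte genes were higher at an unadjusted p under 0.05 (23.7%) and 0 lower, with a median of 0.11, against 4.8% and 1.07% of all genes. Under either other scaling 8 of them were higher. Among them Cd81, a tetraspanin, was higher by 0.14 ± 0.04 (SE). Of 24 genes of lipid metabolism, which include enzymes that make myelin lipids, lysosomal ones that break them down and a few others, 8 were higher (33.3%), or 6 with median centring (3.38% of all genes) and 4 with quantile normalization (3.08%), and all 24 differences were above 0 as deposited and 23 under either other scaling, with a median of 0.11. Cers2, which makes ceramides with very long chains, was higher by 0.21 ± 0.06 and Elovl5, a fatty acid elongase, by 0.16 ± 0.05 (SE). Of the precursor genes 1 of 19 was higher (5.26%), of the regulators of the lineage 1 of 24 (4.17%) and of the partners at the axon and node 1 of 27 (3.7%), shares near the 4.8% of all genes, with medians of 0.02, 0.05 and 0.04. Differences between the lists were not tested. No gene of these 5 lists passed the adjusted threshold in any of the 7 comparisons.

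On ibuprofen chow 8 of 24 regulators (33.3%) and 4 of 19 precursor genes (21.1%) were lower in APP-PS1 mice, against 18.2% of all genes. With median centring these counts were 2 and 3, against 10% of all genes, and with quantile normalization 3 and 2, against 10.3%. Zfp536, a zinc finger repressor, was lower by 0.30 on the log2 scale, at -0.30 ± 0.08 (SE), and Tnr, the matrix protein tenascin-R, at -0.22 ± 0.06 (SE). Of the precursor genes 1 of 19 (5.26%) was higher at an unadjusted p under 0.05, against 6.25% of all genes. It was Olfml3, at 0.34 ± 0.08 (SE), the gene of that list with the smallest p. Most of the list went the other way in the deposited values, with 15 of 19 differences below 0, against 62.2% of all genes. In the interaction 16 of 38 other oligodendrocyte genes (42.1%) and 7 of 24 genes of lipid metabolism (29.2%) were below 0 at an unadjusted p under 0.05, against 16% of all genes. With median centring they were 4 and 2 (7.19% of all genes) and with quantile normalization 4 and 1 (6.52%). Of the 27 partners at the axon and node, 4 were lower in APP-PS1 mice on ibuprofen at an unadjusted p under 0.05. That share lay under the 18.2% of all genes, and 1 partner was higher, against 6.25%. With median centring 2 partners were lower and 2 higher, and with quantile normalization 2 were lower and 3 higher. Cntnap1, the axonal partner of the paranodal junction, had the smallest p of that list and was lower, at -0.26 ± 0.07 (SE).

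Markers of other cells were also partly higher in APP-PS1 mice on control chow in the deposited values. At an unadjusted p under 0.05, against 4.8% of all genes, 3 of 15 astrocyte markers were higher (20%), with a median of 0.05, and 3 of 15 neuron markers (20%), with a median of -0.0031. Of the microglial markers 2 of 14 were higher (14.3%), with a median of 0.10, and of the endothelial markers 1 of 13 (7.69%), with a median of 0.14. Of choroid plexus markers 0 of 15 were, although all 15 differences were above 0 with a median of 0.52. Of the 7 Schwann cell markers 0 were higher and 1, Dhh, was lower. Under either other scaling the higher markers numbered 3 for astrocytes, 1 for neurons and 1 for microglia. For endothelium they numbered 1 with median centring and 0 with quantile normalization, where 1 neuron marker was also lower. Schwann cell markers had 1 higher and 2 lower with median centring, and 0 higher and 1 lower with quantile normalization. The mean log2 value over the microglial list ran from 9.32 to 9.43 in wild-type and from 9.40 to 9.60 in APP-PS1 control arrays. For endothelium this mean ran from 9.34 to 9.67 and from 9.40 to 9.64, and for astrocytes from 11.53 to 11.70 and from 11.64 to 11.79. Neuron markers lay between 12.65 and 12.69 in wild-type and between 12.63 and 12.76 in APP-PS1 arrays. Their part in the members' differences was not tested, apart from fits with the choroid plexus mean as a covariate. In those fits the members' median was 0.11 on control chow and 0.03 averaged over the diets.

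**Figure D5:**
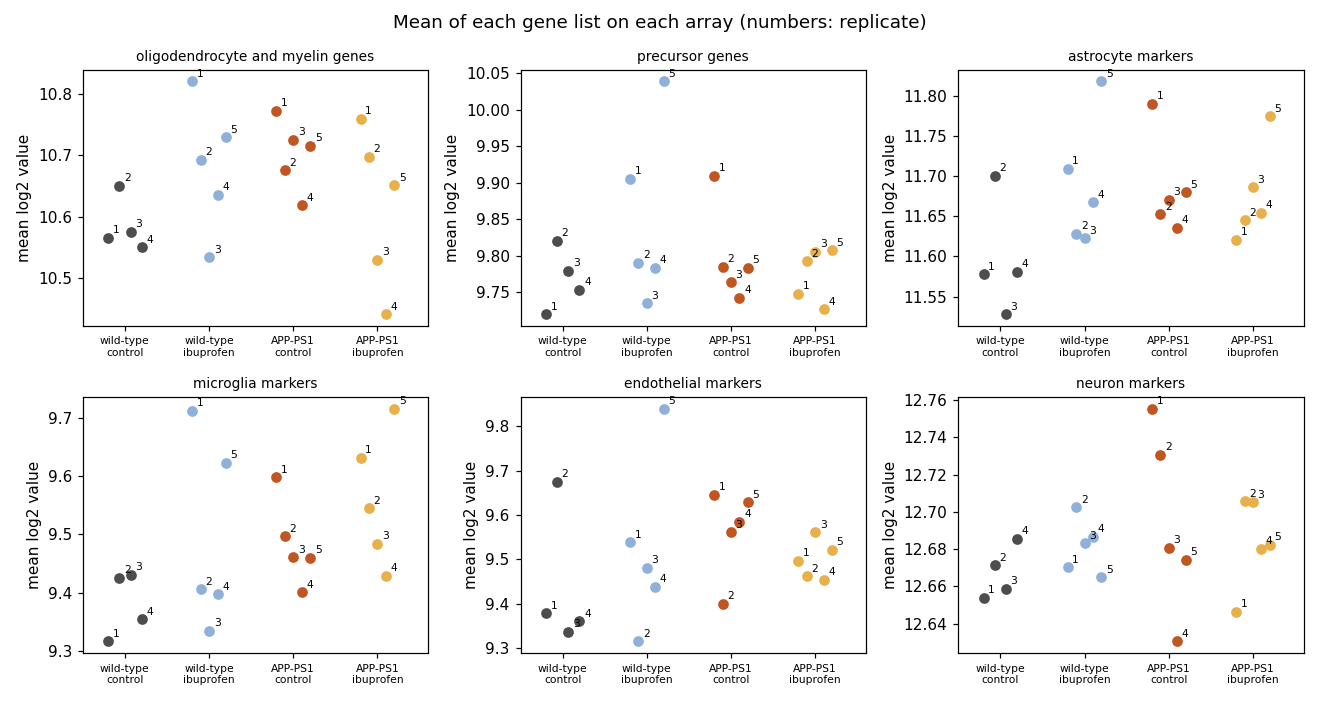
Mean log2 value of 6 gene lists on each array, by group, with the replicate number beside each point; the vertical axes differ and do not start at 0. The members' mean ran from 10.55 to 10.65 in wild-type and from 10.62 to 10.77 in APP-PS1 control arrays, and the 3 arrays with high upper quartiles also stand high for precursor genes.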

How the data were processed

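Total RNA of mouse hippocampus was measured on 19 Affymetrix whole-transcript arrays, labelled with biotin per the labels' protocols. The deposited table holds 35556 probe sets as log2 values, which the authors made with RMA and Partek 6.5 per the submitters' processing notes; the RMA settings are not given in the sources used here. Arrays have no counted depth, and their number limits the precision. Probe sets with 1 gene symbol numbered 21789, with several 1621 and with none 12146. Each of 19938 genes was represented by its single-symbol probe set of highest mean.

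Group means were fitted with limma 3.58.1 in R 4.3.3 (lmFit, eBayes with a mean trend, 15 residual degrees of freedom), with Benjamini-Hochberg adjustment over all genes at 0.05. The script was tested on simulated data. Symbols came from the platform annotation, and promoter windows from RefSeq (GRCm38.p6). The members and lists were chosen with earlier results of these data known. Values on every array were given for the 12 members with the smallest unadjusted p in any of the 4 comparisons between groups and for 7 set members (Mbp, Mog, Mag, Cnp, Sox10, Olig2 and Myrf), and other members were named by their difference. Array values of Pllp and the naming of Gsn and Cryab were chosen after their values were seen. At most 3 genes of each other list, those with the smallest p, were named. Grouping by role was made after the values were seen. The 11 alternatives included scaling, array weights, the replicate number as a block and a choroid plexus covariate, beside leaving out each of the 19 arrays.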

Additional observations from a re-analysis of the deposited data

Results flagged for a closer look

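In 6 of 132 sets, each 1 member in 1 group, the highest or lowest array stood apart from the rest by Dixon's criterion, and chance gives about 1 in 20. The value given is the gap to the nearest array as a share of the group's range. Mal on wild-type control chow replicate 2 read 11.65 against a next value of 11.47, a share of 0.884. Apod on the same array read 13.30 against 12.82, a share of 0.834. Opalin on wild-type ibuprofen chow replicate 1 read 10.39 against 9.89, a share of 0.717, and Bcas1 on wild-type ibuprofen chow replicate 5 was low at 9.84 against 10.06, a share of 0.726. Plekhb1 on APP-PS1 control chow replicate 3 read 12.77 against 12.69, a share of 0.762. Qdpr on APP-PS1 ibuprofen chow replicate 3 was low at 11.73 against 11.83, a share of 0.77. Both wild-type ibuprofen arrays named here are among the 3 arrays with high upper quartiles.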

How the results depend on the processing

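The members' median kept its sign in every leave-out of 1 array for 6 of the 7 comparisons; the ibuprofen difference averaged over genotypes, 0.01, ranged from -0.01 to 0.03. Over leave-outs the genotype median ranged from 0.09 to 0.15 on control chow, from -0.09 to -0.02 on ibuprofen chow and from 0.01 to 0.05 averaged, the ibuprofen median from -0.12 to -0.04 in APP-PS1 and from 0.05 to 0.12 in wild-type mice, and the interaction median from -0.22 to -0.15. With each array centred on its median the interaction median was -0.0765 and the genotype median on ibuprofen chow turned to 0.03. With array weights 1 member passed the adjusted threshold for genotype on ibuprofen chow, Gsn at 0.32 with an adjusted p of 0.0119, and 3 passed for genotype averaged over diets, Cldn11 at 0.17 (adjusted p = 0.0308), Cnp at 0.11 (adjusted p = 0.0381) and Gsn at 0.24 (adjusted p = 0.0184). These were the only member calls over 11 alternatives and 19 leave-outs. The weights ran from 0.105 for wild-type ibuprofen chow replicate 5 to 4.74 for wild-type ibuprofen chow replicate 2. The share of all genes that passed with array weights was not counted, so these calls have no background beside them. With the replicate number as a block 0 members passed, and 11 members on control chow (4.64% of all genes) and 13 in the interaction (15.8%) had an unadjusted p under 0.05. Same-numbered arrays correlated over 0.1 in 17 of 27 pairs (median 0.129, from -0.27 to 0.60) and other arrays in 29 of 108 (median -0.047), and 11 of 19 arrays correlated best with one of their own number. This is a hint of pairing from the data, and whether the numbers pair the samples was not tested. The labels do not say what the numbers mean, so the main fit left them out, and the block fit above used them. A fit of the compared groups alone does not apply to the interaction or the averages. With 4 or 5 arrays a group, the member standard errors of the genotype difference on control chow ran from 0.04 to 0.16. A difference had to be well above its standard error to be resolved: Gsn at 0.17 ± 0.09 (SE) had an unadjusted p of 0.0767 by limma. Even Tspan2 at 0.39 ± 0.10 (SE) had an adjusted p of 0.762 by limma.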
